A study of Mus musculus with 12 samples.

Results

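The enzymes and chaperones that modify fibrillar procollagen inside the cell, and the proteins that trim it outside, were followed across 4 stages of mouse lung development. They were 10 genes chosen by name, P4ha1, P4ha2, P4ha3, P4hb, Plod1, Plod2, Plod3, Serpinh1, Bmp1 and Pcolce, out of 28004 genes in the table. Every one of the 10 was among the 16827 genes that passed the filter on low counts and were tested. Bulk RNA sequencing had been done on cells taken by flow cytometry from whole lungs of mice with the genotype Acta2-dsRed+, Pdgfra-GFP+. The sorted cells were positive for both reporters at each stage, and the stages were 1 embryonic (E17.5) and 3 postnatal, on day 3 (P3), day 7 (P7) and day 10 (P10), each with 3 libraries. Smooth muscle actin is the product of Acta2 and a receptor for platelet-derived growth factor that of Pdgfra; alveolar myofibroblasts make both. Nothing in the labels ties the 3 libraries of a stage to different animals. The p-values therefore measure the spread between these libraries alone, which may be technical.

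Procollagen chains are hydroxylated on proline and lysine in the endoplasmic reticulum while they fold into a triple helix. Hydroxyproline, made by prolyl 4-hydroxylase, keeps the helix stable at body temperature, and hydroxylysine, made by lysyl hydroxylases, carries sugars and forms the crosslinks between molecules. After secretion, proteases cut off the propeptides at both ends, and only then do the molecules assemble into fibrils, which in the lung accompany elastin in the alveolar wall.

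Expression is given as counts per 1000000 counts (CPM) on library sizes scaled by the trimmed mean of M-values (TMM), and changes as log2 fold changes of the later stage over the earlier one. Library totals ran from 13328600 to 18740600 estimated counts, of which the 10 genes together took between 0.0509% and 0.147%. The E17.5 replicate 2 library stood apart in composition, with 46.3% of its counts in 3 structural RNA genes (20.0% to 43.7% in the other libraries) and the lowest TMM factor, 0.589. The E17.5 replicate 1 library held 1359 CPM of 6 alveolar fibroblast marker genes in sum, against 308 and 234 CPM in the other E17.5 libraries. In bulk RNA, fewer cells of a type and less RNA per cell cannot be told apart.

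Most of the changes between neighbouring stages lay between E17.5 and P3. P4ha1 and all 3 lysyl hydroxylase genes were lower at P3 than at E17.5, by log2 fold changes of -0.76 to -0.45, while Pcolce (1.11) and P4hb (0.43) were higher. That made 6 of the 10 genes past an adjusted p of 0.05 in edgeR's quasi-likelihood test (Benjamini-Hochberg over all tested genes), where 25.1% of all tested genes passed. The median log2 fold change of the 10 genes was -0.44, against -0.05 over all tested genes. Over the 4 stages 6 genes also passed, P4ha1, P4ha3, Plod1, Plod3, Bmp1 and Pcolce, against 32.1% of all genes. From P3 to P7 edgeR called 0 of the 10 genes, with 0.00594% of all genes called. At an unadjusted p under 0.05 there were 2, Plod3 and Bmp1 (14.3% of all genes), and DESeq2 and limma-voom also called 0. From P7 to P10 1 gene passed, P4ha1, which was higher at P10 (3.64% of all genes called, 1.40% higher at P10).

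These counts depended on single libraries. Over the 4 stages P4ha3 was lost on leaving out P10 replicate 1 or 2 (edgeR adjusted p = 0.0602 and 0.0524), Plod1 on leaving out E17.5 replicate 2 (0.0734), and Bmp1 on leaving out any P3 or P7 library or P10 replicate 1 or 2 (0.0519 to 0.0888). When E17.5 replicate 2 was left out, P4ha1, Plod2 and Pcolce were the 3 of the 10 genes that passed at P3 against E17.5. When E17.5 replicate 1 was left out there were 5, P4ha1, P4ha3, Plod1, Bmp1 and Pcolce. P4hb, Plod2 and Plod3 were then lost, and P4ha3 (-0.70, edgeR adjusted p = 0.0298) and Bmp1 (-0.34, edgeR adjusted p = 0.0384) were gained as lower at P3. Scaling to total counts without the structural RNA genes moved the median of all genes by 0.14 on the log2 scale in this comparison. Under it Pcolce was the 1 gene that passed, P4ha1 stood at -0.62 (edgeR adjusted p = 0.0611), and the 6 genes kept their direction. At P10 against E17.5 the same scaling moved the median by 0.29, and there Plod1 stood at -0.15 (edgeR adjusted p = 0.498) and Plod3 at -0.32 (edgeR adjusted p = 0.103). At P10 against P7 it left P4ha1 at 0.59 (edgeR adjusted p = 0.203). At P7 against E17.5 it moved the median by 0.24, and P4ha1 at -0.55 (edgeR adjusted p = 0.0845) and Plod1 at -0.27 (edgeR adjusted p = 0.2225) then fell short of the threshold.

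**Figure D1:**
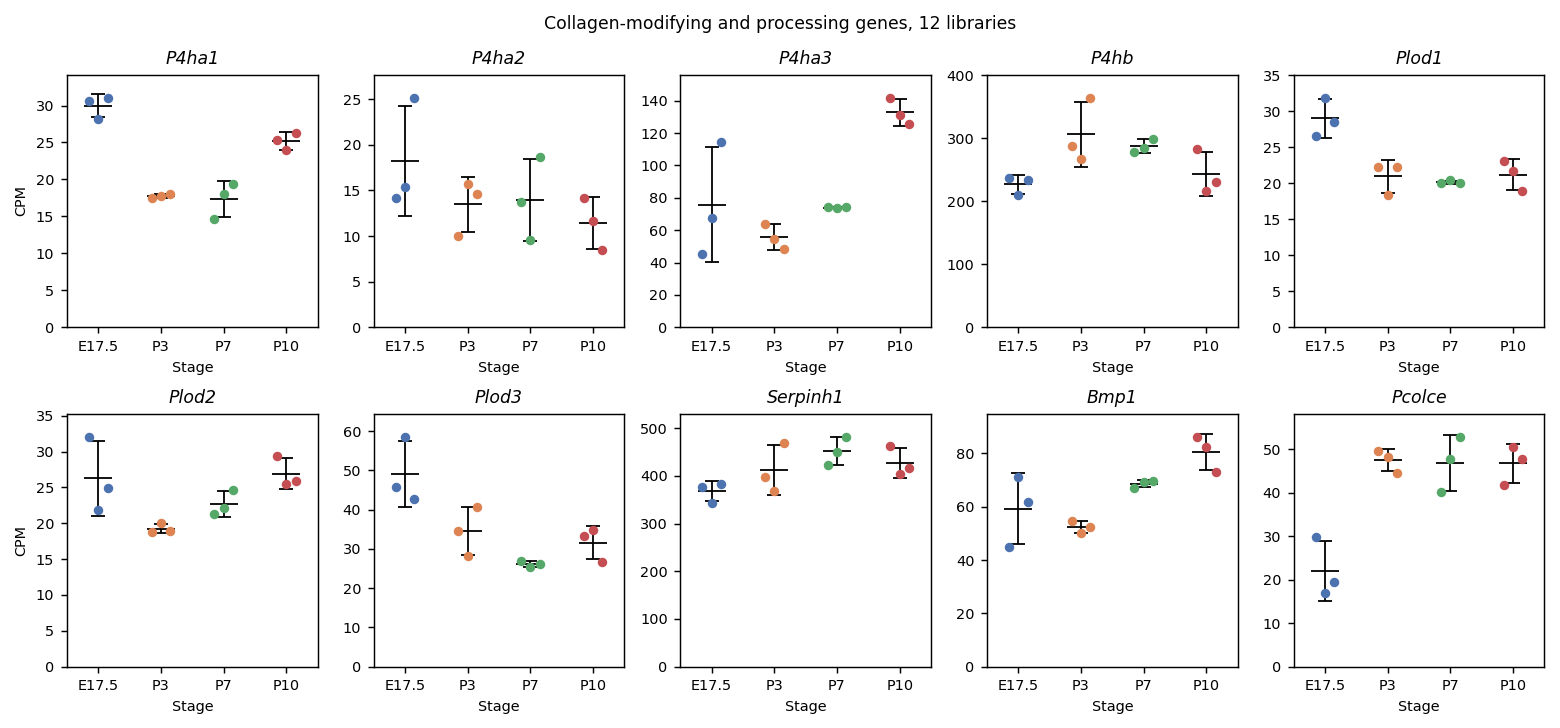
Expression of the 10 genes in CPM (vertical axis, linear, from 0) in each of the 12 libraries by stage; points are libraries, long bars means and short bars 1 SD (n = 3). P4ha1 was highest at E17.5 and lowest at P3 and P7, P4ha3 was highest at P10, and Pcolce was lowest at E17.5.

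**Figure D2:**
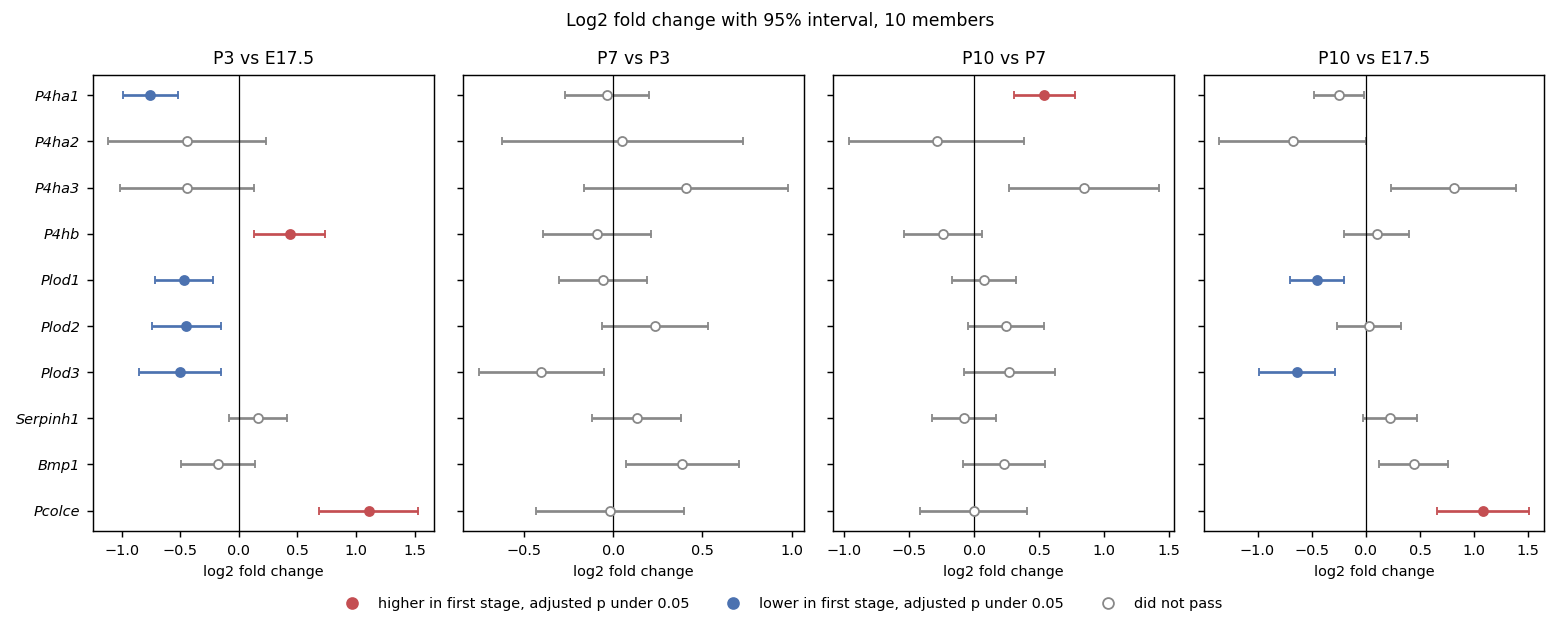
Log2 fold changes (horizontal axis) of the 10 genes in 4 comparisons of stages, the first-named stage over the second, with 95% intervals from the model over 12 libraries. Filled points passed the adjusted p of 0.05; 6 did so in P3 against E17.5, 0 in P7 against P3, 1 in P10 against P7 and 3 in P10 against E17.5.

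The catalytic alpha subunits of prolyl 4-hydroxylase come from 3 genes. P4ha1 encodes the alpha subunit found in most tissues and lies at chr10:59323296-59373304 (GRCm38, plus strand). It stood at 30.6, 28.2 and 31.1 CPM in the E17.5 libraries, 17.53, 17.77 and 17.97 CPM at P3, 14.7, 17.97 and 19.4 CPM at P7, and 25.3, 24.0 and 26.3 CPM at P10. The E17.5 libraries lay above all others, the P3 and P7 libraries overlapped, and the P10 libraries lay between. P4ha1 averaged 17.8 ± 0.221 CPM at P3 and 30.0 ± 1.54 CPM at E17.5 (SD, n = 3 each), a log2 fold change of -0.76 (SE 0.106; edgeR adjusted p = 0.000719). It kept its call with any 1 library left out, at log2 fold changes between -0.78 and -0.71. At P10 it averaged 25.2 ± 1.17 CPM, against 17.3 ± 2.44 CPM at P7, and the difference of 0.54 on the log2 scale (SE 0.1055) passed at an edgeR adjusted p of 0.0268. That second call ended when P3 replicate 2, any of the P7 libraries, or P10 replicate 2 or 3 was left out, with edgeR adjusted p-values between 0.0538 and 0.0941. P10 and E17.5 did not overlap either, but the log2 difference of -0.25 did not pass (edgeR adjusted p = 0.129).

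P4ha3, at chr7:100285520-100319699 (plus strand), encodes the alpha subunit that is restricted to fewer tissues. Its values were 45.3, 67.3 and 115 CPM in the E17.5 libraries, 64.0, 54.7 and 48.6 CPM at P3, 74.1, 73.5 and 74.4 CPM at P7, and 142, 131 and 125 CPM at P10. All P10 libraries were above all others, the P7 libraries were above those of P3, and the E17.5 libraries were spread so widely that they overlapped P3 and P7. P4ha3 averaged 133 ± 8.41 CPM at P10 and 55.8 ± 7.79 CPM at P3 (SD, n = 3 each), a rise of 1.25 on the log2 scale (SE 0.262; edgeR adjusted p = 0.0106), in a comparison where 4 of the 10 genes passed, all higher at P10. In it 17.3% of all genes were called and 7.90% were higher at P10. Against P7 the difference was 0.84 (SE 0.2596; adjusted p = 0.102) and against E17.5 0.81 (SE 0.2596; adjusted p = 0.0538), both short of the edgeR threshold. Without E17.5 replicate 1, 2 or 3, P10 against E17.5 stood at 0.54 (adjusted p = 0.102), 0.73 (0.169) and 1.23 (0.00139) in edgeR, replicate 3 being the highest of its stage. That comparison also passed with upper quartile scaling (0.88, edgeR adjusted p = 0.0467), a filter at a mean of at least 10 CPM (0.84, edgeR adjusted p = 0.0371), DESeq2 (0.81, adjusted p = 0.00971) and limma-voom (0.91, adjusted p = 0.0333). Without E17.5 replicate 3, P10 against P7 stood at 0.82 (edgeR adjusted p = 0.0231). P10 against P7 also passed in edgeR without E17.5 replicate 1 (0.84, adjusted p = 0.0356) and in DESeq2 (0.85, adjusted p = 0.0133). In the edgeR fit on the 6 libraries compared it passed as well (0.84, adjusted p = 0.0182). P4ha1 did not pass in that fit (0.53, edgeR adjusted p = 0.0633), so the 1 gene called there was P4ha3. The E17.5 library with the lowest P4ha3 was the one with the high alveolar fibroblast markers, and the part of those markers in the spread was not tested.

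P4ha2, at chr11:54100095-54131665 (plus strand), encodes the remaining alpha subunit. It was 14.1, 15.4 and 25.2 CPM in the E17.5 libraries, 10.03, 15.7 and 14.7 CPM at P3, 13.7, 9.58 and 18.6 CPM at P7, and 14.2, 11.6 and 8.49 CPM at P10. The 4 stages overlapped, and E17.5 replicate 3 was the highest library. No comparison of stages passed, and the edgeR adjusted p over all stages was 0.328. The 95% interval of P3 against E17.5 ran from -1.11 to 0.23 on the log2 scale, so a fall of the size seen in P4ha1 lay inside it.

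Counted per kilobase of the longest protein-coding transcript, P4ha3 was the leading alpha subunit transcript in all 12 libraries. Of the sum of the 3 genes per kilobase it made up 65.9 ± 7.09% in E17.5 libraries, 69.3 ± 5.48% in P3, 75.1 ± 3.89% in P7 and 83.3 ± 0.524% in P10 libraries (SD, n = 3 each). The share of P4ha1 was 9.26 ± 0.891% at P10 and 17.0 ± 5.78% at E17.5, and that of P4ha2 7.42 ± 1.38% at P10 and 17.2 ± 1.53% at E17.5. At P10 the P4ha3 share lay above that of every library of the earlier stages, and the P4ha2 share lay below. The transcripts that these cells use are not known from gene counts, so a shorter form would change these shares. How the deposited counts were scaled is not given either. If that scaling had already taken out transcript length, the division by length would correct for it again and change the shares. In CPM without the division, P4ha3 was also the highest of the 3 genes in all 12 libraries.

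**Figure D3:**
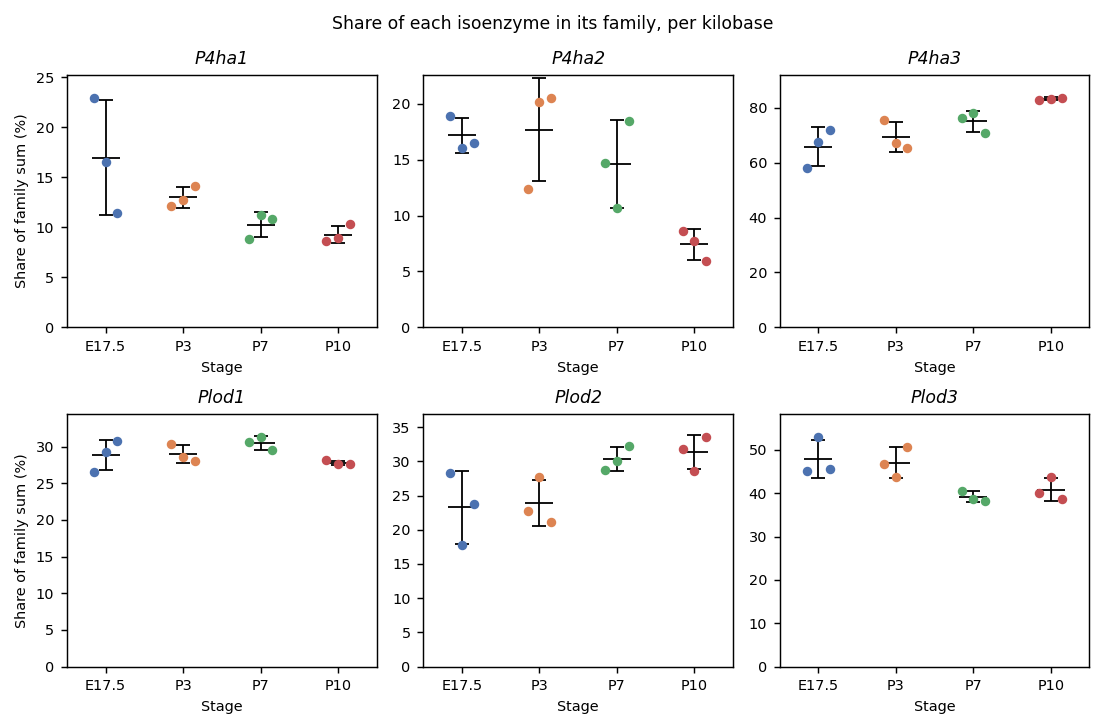
Share (%) of each alpha subunit gene and each lysyl hydroxylase gene in the sum of its 3-gene family, from CPM per kilobase of the longest protein-coding transcript, by stage; points are libraries, bars mean and 1 SD (n = 3). At these lengths P4ha3 held 82.8% to 83.8% of its family at P10, and Plod3 held the largest share of its family at all 4 stages.

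P4hb, at chr11:120560298-120573253 (minus strand), encodes protein disulfide isomerase, which is the beta subunit of prolyl 4-hydroxylase and also a folding enzyme in its own right. It was 236, 210 and 234 CPM in the E17.5 libraries, 288, 266 and 365 CPM at P3, 278, 285 and 299 CPM at P7, and 282, 217 and 231 CPM at P10. The P3 and P7 libraries were above those of E17.5, and P10 overlapped each of them. P4hb averaged 306 ± 51.8 CPM at P3 and 227 ± 14.8 CPM at E17.5 (SD, n = 3 each), higher by 0.43 on the log2 scale (SE 0.137; edgeR adjusted p = 0.0410). This call ended when any 1 of the E17.5 or P7 libraries, P3 replicate 1 or 3, or P10 replicate 3 was left out, with edgeR adjusted p-values between 0.058 and 0.14. With P3 replicate 3 left out the difference was 0.29. Over all stages P4hb did not pass (edgeR adjusted p = 0.0800). It passed with DESeq2 (adjusted p = 0.0235), a mean of at least 10 CPM (edgeR adjusted p = 0.0340) and without P10 replicate 1 (edgeR adjusted p = 0.0252).

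Among 9 other folding genes of the endoplasmic reticulum, 1 was higher and 1 lower at P3 than at E17.5, where 25.1% of all genes were called. Canx, which encodes the chaperone calnexin, averaged 525 ± 41.4 CPM at P3 and 396 ± 45.2 CPM at E17.5 (log2 fold change 0.41, edgeR adjusted p = 0.0361). Ero1l, the older symbol of Ero1a, encodes the oxidase that recharges protein disulfide isomerase, and it averaged 4.13 ± 0.526 CPM at P3 and 6.11 ± 1.122 CPM at E17.5 (-0.57, edgeR adjusted p = 0.0366). At P10 only Pdia6, another disulfide isomerase, passed against E17.5 among these 9, at 98.9 ± 6.84 CPM at P10 and 137 ± 10.98 CPM at E17.5 (-0.47, edgeR adjusted p = 0.0201), where 18.3% of all genes were called.

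The lysyl hydroxylases, encoded by Plod1, Plod2 and Plod3, were each lower at P3 than at E17.5. Plod1, at chr4:147909753-147936767 (minus strand), acts mainly on lysines of the helical part of collagen. It was 26.6, 31.9 and 28.5 CPM in the E17.5 libraries, 22.2, 18.3 and 22.3 CPM at P3, 20.0, 20.4 and 20.0 CPM at P7, and 23.0, 21.7 and 18.9 CPM at P10. Every E17.5 library was above every postnatal one, and the postnatal stages overlapped. Plod1 averaged 21.0 ± 2.26 CPM at P3 and 29.0 ± 2.68 CPM at E17.5, a log2 fold change of -0.47 (SE 0.112; edgeR adjusted p = 0.0117). At P10 it averaged 21.2 ± 2.14 CPM, still lower than at E17.5 by a log2 fold change of -0.45 (edgeR adjusted p = 0.0181). Without E17.5 replicate 2 neither call held (adjusted p = 0.0594 and 0.0710 in edgeR), nor did the first without P3 replicate 2 (0.0631) or the second without P10 replicate 3 (0.0823).

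Plod3, at chr5:136987019-136996648 (plus strand), encodes the lysyl hydroxylase that also transfers sugars to hydroxylysine, a step needed for type IV collagen. It was 45.7, 58.6 and 42.8 CPM in the E17.5 libraries, 34.6, 28.3 and 40.8 CPM at P3, 26.9, 25.4 and 26.2 CPM at P7, and 33.2, 34.8 and 26.7 CPM at P10. The postnatal libraries all lay below those of E17.5, and those of P7 were the lowest apart from P10 replicate 3. Plod3 averaged 26.2 ± 0.749 CPM at P7 and 49.0 ± 8.402 CPM at E17.5 (SD, n = 3 each), a fall of 0.90 on the log2 scale, with 4 of the 10 genes called in this comparison (25.4% of all genes). The edgeR adjusted p for Plod3 was 0.00238. Against E17.5 it was also lower at P3 (-0.50, SE 0.159; adjusted p = 0.0403) and at P10 (-0.63, SE 0.159; adjusted p = 0.0191) in edgeR's test. At P3 the call was lost on leaving out E17.5 replicate 1 or 2, P3 replicate 1 or 2, any P7 library, or P10 replicate 1 or 2, with edgeR adjusted p-values between 0.0516 and 0.169. The difference was -0.34 when E17.5 replicate 2 was left out and -0.36 when P3 replicate 2 was. At P10 it was lost on leaving out E17.5 replicate 2 (edgeR adjusted p = 0.0691) or P10 replicate 3 (edgeR adjusted p = 0.0841). Plod3 overlaps Znhit1 on the opposite strand by 1003 nt, where Znhit1 had 20.0 to 34.9 CPM, and whether the counting used strand is not given in the sources used here.

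Plod2, at chr9:92542223-92608428 (plus strand), hydroxylates lysines of the telopeptides, which sets the type of crosslink. It was 32.1, 21.9 and 24.9 CPM in the E17.5 libraries, 18.8, 20.0 and 19.0 CPM at P3, 21.3, 22.1 and 24.7 CPM at P7, and 29.4, 25.4 and 25.9 CPM at P10. The P3 libraries were the lowest, the P10 libraries were above those of P3 and P7, and E17.5 overlapped P7 and P10. Plod2 averaged 19.3 ± 0.636 CPM at P3 and 26.3 ± 5.23 CPM at E17.5, lower by a log2 fold change of -0.45 (SE 0.134; edgeR adjusted p = 0.0323). At P10 it averaged 26.9 ± 2.17 CPM, higher than at P3 by 0.48 on the log2 scale (SE 0.134; edgeR adjusted p = 0.0329). The first was lost on leaving out E17.5 replicate 1 (-0.28, adjusted p = 0.101) or 3, or any P3 library, with edgeR adjusted p-values between 0.053 and 0.101. The second ended without any P3 or P10 library or P7 replicate 2, at edgeR adjusted p-values between 0.0504 and 0.103. Over all stages Plod2 did not pass (edgeR adjusted p = 0.0503). It passed with DESeq2 (adjusted p = 0.00734) and a mean of at least 10 CPM (edgeR adjusted p = 0.0307). It also passed without E17.5 replicate 1 (edgeR adjusted p = 0.0272) or replicate 2 (edgeR adjusted p = 0.0295). Plod2 overlaps Gm38391 on the opposite strand by 647 nt, and Gm38391 had at most 1.36 CPM. Per kilobase, Plod2 was 31.3 ± 2.52% of the lysyl hydroxylase sum at P10 and 23.3 ± 5.31% at E17.5, while Plod3 was 40.9 ± 2.58% at P10 and 47.9 ± 4.46% at E17.5. A shorter form would change these shares too, as Plod1 has a transcript of 1059 nt beside its longest of 3243 nt. In CPM without the division by length, Plod3 was also the highest lysyl hydroxylase gene in every library.

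The first 250 bases before the start site are shown for P4ha1, Plod1 and Plod3, which were lower at both P3 and P7 than at E17.5, and for Pcolce, which was higher at both. They are from RefSeq (GRCm38.p6), in which 8 of the 10 genes had an entry, and are written along the gene's own strand. The RefSeq start of Pcolce lies inside the span that GENCODE gives the gene. The motif searched was ACGTG with its complement CACGT, on both strands, and capitals mark it, so that a CACGTG would hold both. It is a form of the core of the site bound by hypoxia-inducible factors. The other form, GCGTG or its complement CACGC, was not searched and stands unmarked in each window printed here.
P4ha1, chr10:59323046-59323295, plus strand: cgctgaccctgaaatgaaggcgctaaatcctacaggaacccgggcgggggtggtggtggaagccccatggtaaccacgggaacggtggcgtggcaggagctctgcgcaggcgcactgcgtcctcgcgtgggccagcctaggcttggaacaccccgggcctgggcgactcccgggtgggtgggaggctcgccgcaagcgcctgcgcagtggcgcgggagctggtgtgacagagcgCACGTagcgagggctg
Plod3, chr5:136986769-136987018, plus strand: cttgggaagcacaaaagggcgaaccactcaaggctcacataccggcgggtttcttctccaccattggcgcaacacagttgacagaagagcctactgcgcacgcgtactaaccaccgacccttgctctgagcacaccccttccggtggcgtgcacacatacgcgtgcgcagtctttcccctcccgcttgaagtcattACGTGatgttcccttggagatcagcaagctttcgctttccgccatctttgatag
Plod1, chr4:147936777-147937026, minus strand: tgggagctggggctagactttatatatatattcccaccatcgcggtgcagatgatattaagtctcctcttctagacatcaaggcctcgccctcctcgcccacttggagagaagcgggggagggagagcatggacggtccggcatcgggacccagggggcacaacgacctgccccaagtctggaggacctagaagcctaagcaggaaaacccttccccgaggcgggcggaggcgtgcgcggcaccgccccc
Pcolce, chr5:137611405-137611654, minus strand: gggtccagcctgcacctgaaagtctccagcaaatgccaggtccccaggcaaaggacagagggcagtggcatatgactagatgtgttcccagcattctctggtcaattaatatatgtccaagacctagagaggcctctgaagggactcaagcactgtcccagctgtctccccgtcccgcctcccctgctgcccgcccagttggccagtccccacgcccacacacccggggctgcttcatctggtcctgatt
ACGTG or CACGT was present once in P4ha1, starting 16 bases before the start site, and once in Plod3, starting 54 bases before it. These letters were not in the windows of Plod1, Pcolce and P4ha3. Single matches also lay in the windows of P4ha2, P4hb and Serpinh1, which makes 5 of 8 genes, and 16.6% of the 32851 promoters in the table held the core. Such a match is a description of letters and not evidence of binding.

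Of 18 genes known to respond to low oxygen, 8 were lower and 1 was higher at P3 than at E17.5 (25.1% of all genes called). Their median log2 fold change was -0.56, against -0.05 for all tested genes. Bnip3, which encodes a mitophagy receptor, averaged 30.7 ± 2.97 CPM at P3 and 168 ± 27.9 CPM at E17.5 (log2 fold change -2.45, edgeR adjusted p = 8.1e-06). Ndrg1, a stress-induced gene, averaged 9.49 ± 1.12 CPM at P3 and 37.2 ± 4.48 CPM at E17.5 (-1.97). Slc2a1, the gene of a glucose transporter, averaged 3.85 ± 1.54 CPM at P3 and 22.1 ± 7.08 CPM at E17.5 (-2.52). Pdk1, which encodes a kinase that restrains pyruvate dehydrogenase, averaged 1.14 ± 0.365 CPM at P3 and 4.30 ± 1.61 CPM at E17.5 (-1.91). The gene that rose was Egln1, which encodes a prolyl hydroxylase of hypoxia-inducible factor and is no collagen enzyme. At P10, 10 of the 18 genes were lower than at E17.5 (9.50% of all genes). P4ha1 was also lower in that comparison, by a log2 fold change of -0.25, short of the threshold (edgeR adjusted p = 0.129). Whether low oxygen had a part in the changes of the 10 genes was not tested.

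Serpinh1, at chr7:99345376-99353239 (minus strand), encodes HSP47, the chaperone that binds the folded procollagen helix and escorts it out of the endoplasmic reticulum. It was 376, 344 and 382 CPM in the E17.5 libraries, 398, 369 and 470 CPM at P3, 424, 449 and 482 CPM at P7, and 464, 404 and 416 CPM at P10. The P7 and P10 libraries lay above those of E17.5, and P3 overlapped all stages. Serpinh1 averaged 452 ± 29.2 CPM at P7 and 367 ± 20.7 CPM at E17.5, and the log2 difference of 0.30 (95% interval 0.05 to 0.55) did not pass (edgeR adjusted p = 0.0784). It passed with upper quartile scaling (0.36, edgeR adjusted p = 0.0359) and a mean of at least 10 CPM (0.34, edgeR adjusted p = 0.0240). DESeq2 (0.29, adjusted p = 0.0438) and edgeR without P10 replicate 1 (0.32, adjusted p = 0.0478) also called it. No other comparison of stages passed for it.

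Of 12 other genes for collagen folding and hydroxylation, 6 were higher and 2 lower at P3 than at E17.5 (25.1% of all genes called), and the median log2 fold change was 0.32. P3h2, a prolyl 3-hydroxylase known for its action on type IV collagen, averaged 20.3 ± 1.27 CPM at P3 and 3.23 ± 1.38 CPM at E17.5 (log2 fold change 2.63, SE 0.385; edgeR adjusted p = 0.00094). Crtap, a partner of prolyl 3-hydroxylase 1, averaged 65.3 ± 4.04 CPM at P3 and 39.4 ± 6.45 CPM at E17.5 (0.73, edgeR adjusted p = 0.00124). The peptidyl-prolyl isomerase gene Fkbp7 averaged 52.0 ± 1.92 CPM at P3 and 32.4 ± 3.29 CPM at E17.5 (0.68), and Colgalt1, which adds galactose to hydroxylysine, 32.4 ± 0.757 CPM at P3 and 21.7 ± 0.514 CPM at E17.5 (0.57). These rises stood beside the falls of P4ha1 and the lysyl hydroxylase genes in the same libraries. At P10, 3 of the 12 were higher and 1 lower than at E17.5, against 18.3% of all genes called.

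Of the 8 tested genes for procollagen export, 2 were higher at P3 than at E17.5 and 3 were higher at P10 than at E17.5. Of all tested genes 25.1% were called in the first comparison and 18.3% in the second, in either direction. Sparc, a secreted collagen-binding protein, averaged 853 ± 33.0 CPM at P3 and 670 ± 27.4 CPM at E17.5 (0.35, edgeR adjusted p = 0.0412). At P10 it averaged 1273 ± 87.2 CPM, higher than at E17.5 by 0.93 on the log2 scale. Sec13, a coat protein of the vesicles that leave the endoplasmic reticulum, averaged 74.9 ± 7.66 CPM at P3 and 42.3 ± 8.84 CPM at E17.5 (0.82). Its coat partners Sec31a and Sec24d were higher at P10 than at E17.5, by 0.49 and 0.42 on the log2 scale.

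Outside the cell, propeptides are removed by proteases with a helper. Pcolce, at chr5:137605103-137613784 (minus strand), encodes the enhancer that speeds removal of the C-terminal propeptide and has no protease activity itself. It was 29.8, 16.8 and 19.5 CPM in the E17.5 libraries, 49.6, 48.4 and 44.7 CPM at P3, 40.1, 47.8 and 52.9 CPM at P7, and 41.7, 50.7 and 47.9 CPM at P10. All 9 postnatal libraries were above all E17.5 libraries, and the postnatal stages overlapped. Pcolce averaged 47.5 ± 2.57 CPM at P3 and 22.0 ± 6.87 CPM at E17.5 (SD, n = 3 each), a rise of 1.11 on the log2 scale or 2.15-fold (SE 0.191; edgeR adjusted p = 0.00212). The rise passed with any 1 library left out, at 0.97 to 1.39. At P10 Pcolce averaged 46.8 ± 4.57 CPM, higher than at E17.5 by 1.08 on the log2 scale (edgeR adjusted p = 0.003). The same-strand neighbour Fbxo24 overlaps Pcolce by 1282 nt and had at most 0.389 CPM in any library. The antisense gene Gm36266 overlaps Pcolce by 933 nt on the opposite strand, and its level was not analysed here.

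Bmp1, at chr14:70474558-70520234 (minus strand), encodes the protease that removes the C-terminal propeptide. It was 44.9, 71.2 and 61.9 CPM in the E17.5 libraries, 54.8, 50.2 and 52.5 CPM at P3, 67.2, 69.3 and 69.6 CPM at P7, and 86.3, 82.3 and 73.0 CPM at P10. The 3 postnatal stages did not overlap and were higher the later the stage, while the E17.5 libraries spanned P3 and P7. Bmp1 averaged 80.5 ± 6.84 CPM at P10 and 52.5 ± 2.26 CPM at P3 (SD, n = 3 each), a rise of 0.62 on the log2 scale (SE 0.144; edgeR adjusted p = 0.0164). The call ended without P3 replicate 2 (adjusted p = 0.0706), P3 replicate 3 (0.0516) or P10 replicate 2 (0.0586) in edgeR. The steps from P3 to P7 (0.39, adjusted p = 0.269) and P7 to P10 (0.23), and P10 against E17.5 (0.44, adjusted p = 0.0569), did not pass in edgeR's test. Without E17.5 replicate 1, 2 or 3, P10 against E17.5 stood at 0.27 (adjusted p = 0.107), 0.59 (0.0239) and 0.47 (0.0928) in edgeR. It passed with total counts without the structural RNA genes (0.75, edgeR adjusted p = 0.0101), upper quartile scaling (0.52, edgeR adjusted p = 0.0258), a mean of at least 10 CPM (0.47, edgeR adjusted p = 0.0293), DESeq2 (0.44, adjusted p = 0.0177) and limma-voom (0.47, adjusted p = 0.0480).

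Among 4 other tested genes of propeptide processing, 2 proteases of the N-terminal propeptide were lower at P3 than at E17.5, where 25.1% of all genes were called, each by a larger fold change than any of the 10 genes showed there. Adamts14 averaged 13.4 ± 3.998 CPM at P3 and 82.1 ± 21.3 CPM at E17.5 (log2 fold change -2.61, SE 0.226; edgeR adjusted p = 4.59e-05). At P10 it averaged 5.33 ± 0.607 CPM, lower than at E17.5 by a log2 fold change of -3.94. Adamts3 averaged 5.49 ± 0.709 CPM at P3 and 15.8 ± 5.11 CPM at E17.5 (-1.52). Adamts2, the main protease of this kind in skin, was higher late, at 124 ± 5.26 CPM at P10 and 79.7 ± 11.5 CPM at P7 (0.64, SE 0.145; edgeR adjusted p = 0.0400).

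At P10 against E17.5, 3 of the 10 genes passed, where 18.3% of all genes did. Pcolce was higher at P10 (8.79% of all genes higher), and Plod1 and Plod3 were lower (9.50% lower). Of 7 substrate collagen chains, 4 were higher and 1 lower at P10 than at E17.5. The type IV chains had lower means at P10. Col4a1 averaged 647 ± 103 CPM at P10 and 1009 ± 195 CPM at E17.5, and Col4a2 633 ± 55.4 CPM at P10 and 830 ± 163 CPM at E17.5. Col3a1 averaged 3930 ± 216 CPM at P10 and 2682 ± 169 CPM at P7 (0.55, edgeR adjusted p = 0.0428) and 1628 ± 256 CPM at E17.5. Col5a1 averaged 335 ± 29.2 CPM at P3 and 145 ± 3.44 CPM at E17.5 (1.21), and Col5a2 242 ± 22.5 CPM at P10 and 156 ± 14.6 CPM at E17.5 (0.63). The 2 chains of type I collagen parted at P3. Col1a1 averaged 712 ± 23.5 CPM at P3 and 478 ± 57.7 CPM at E17.5 (0.58, edgeR adjusted p = 0.00889), whereas Col1a2 averaged 700 ± 54.8 CPM at P3 and 979 ± 92.3 CPM at E17.5 (-0.48, edgeR adjusted p = 0.0120).

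**Figure D4:**
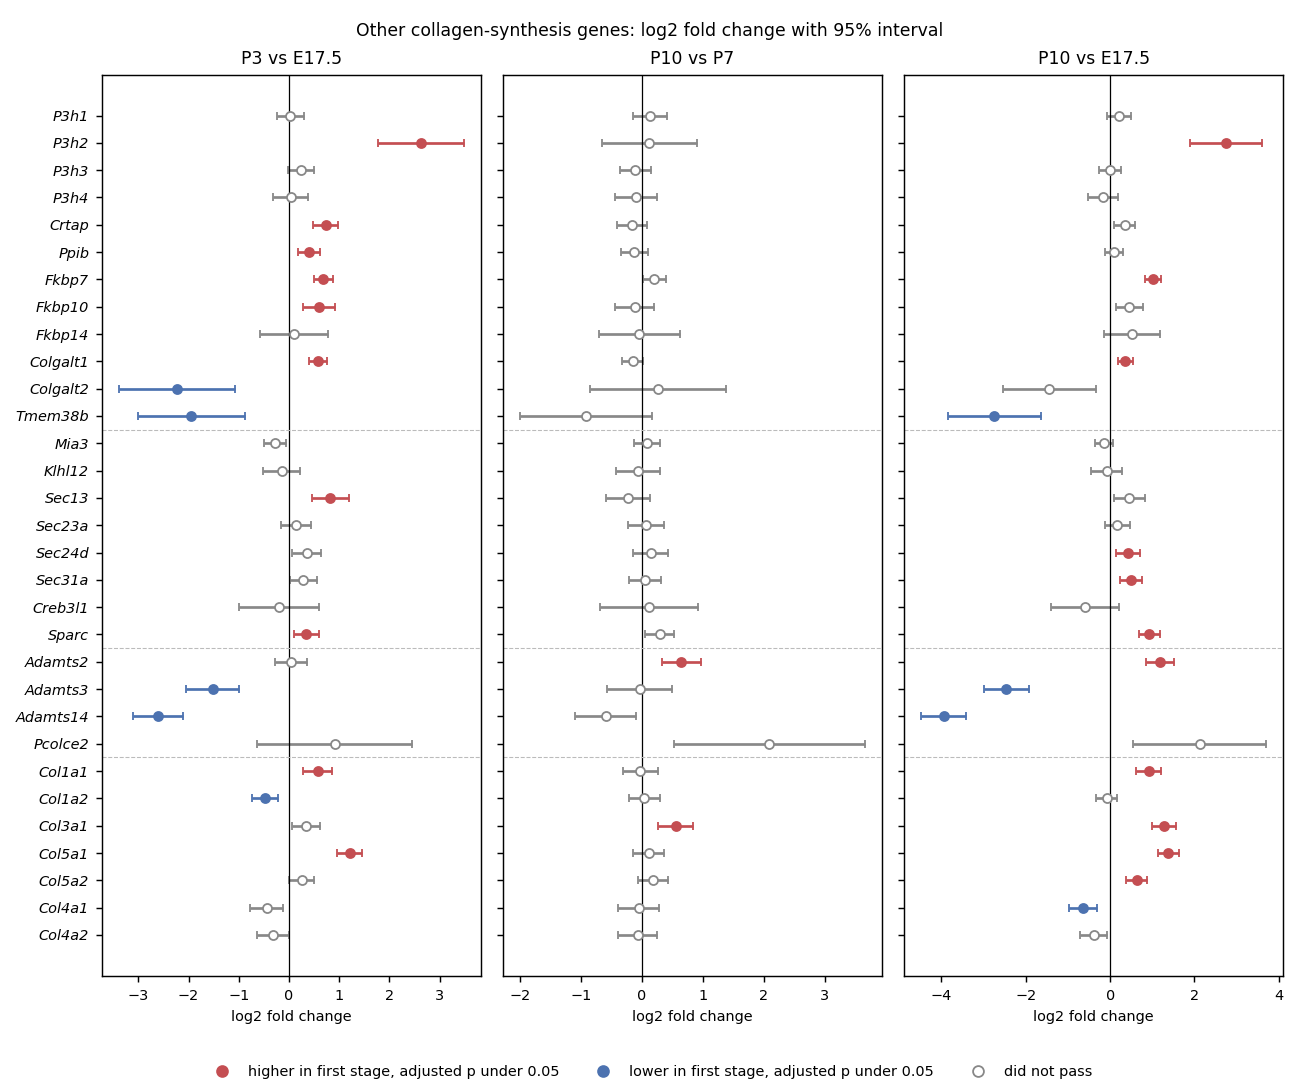
Log2 fold changes (horizontal axis) with 95% intervals of other collagen folding, export, propeptide processing and chain genes, grouped by dashed lines, in 3 comparisons of stages, the first-named over the second. Filled points passed the adjusted p of 0.05; P3h2, Col5a1 and Sec13 were higher and Adamts14 and Adamts3 lower at P3 than at E17.5.

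Relative to type I collagen transcripts, P4ha1, P4ha2 and the 3 lysyl hydroxylase genes had their highest mean at E17.5. P4ha1 stood at 20.6 ± 2.004 CPM per 1000 CPM of Col1a1 and Col1a2 in E17.5 libraries, 12.6 ± 0.822 in P3, 9.55 ± 0.491 in P7 and 13.9 ± 1.41 in P10 libraries (SD, n = 3 each). Plod3 stood at 33.5 ± 4.07 in E17.5 libraries, 24.7 ± 5.82 in P3, 14.6 ± 1.84 in P7 and 17.3 ± 2.19 in P10 libraries. Plod1 stood at 19.9 ± 1.19 in E17.5 libraries, 14.9 ± 2.26 in P3, 11.2 ± 1.23 in P7 and 11.6 ± 0.682 in P10 libraries. For P4ha1, P4ha2, Plod1 and Plod3 the E17.5 libraries exceeded the P7 and P10 libraries without overlap. For P4ha1 and Plod1 the E17.5 libraries exceeded the P3 libraries as well. Serpinh1 stood at 253 ± 25.8 in E17.5 libraries, 294 ± 54.0 in P3, 250 ± 11.2 in P7 and 235 ± 7.21 in P10 libraries, and among the stages only P3 and P10 did not overlap. P4ha3 reached 73.0 ± 1.97 at P10, against 41.1 ± 4.43 at P7. These ratios are descriptions without a test, and their denominator held chains that moved in opposite directions at P3.

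**Figure D5:**
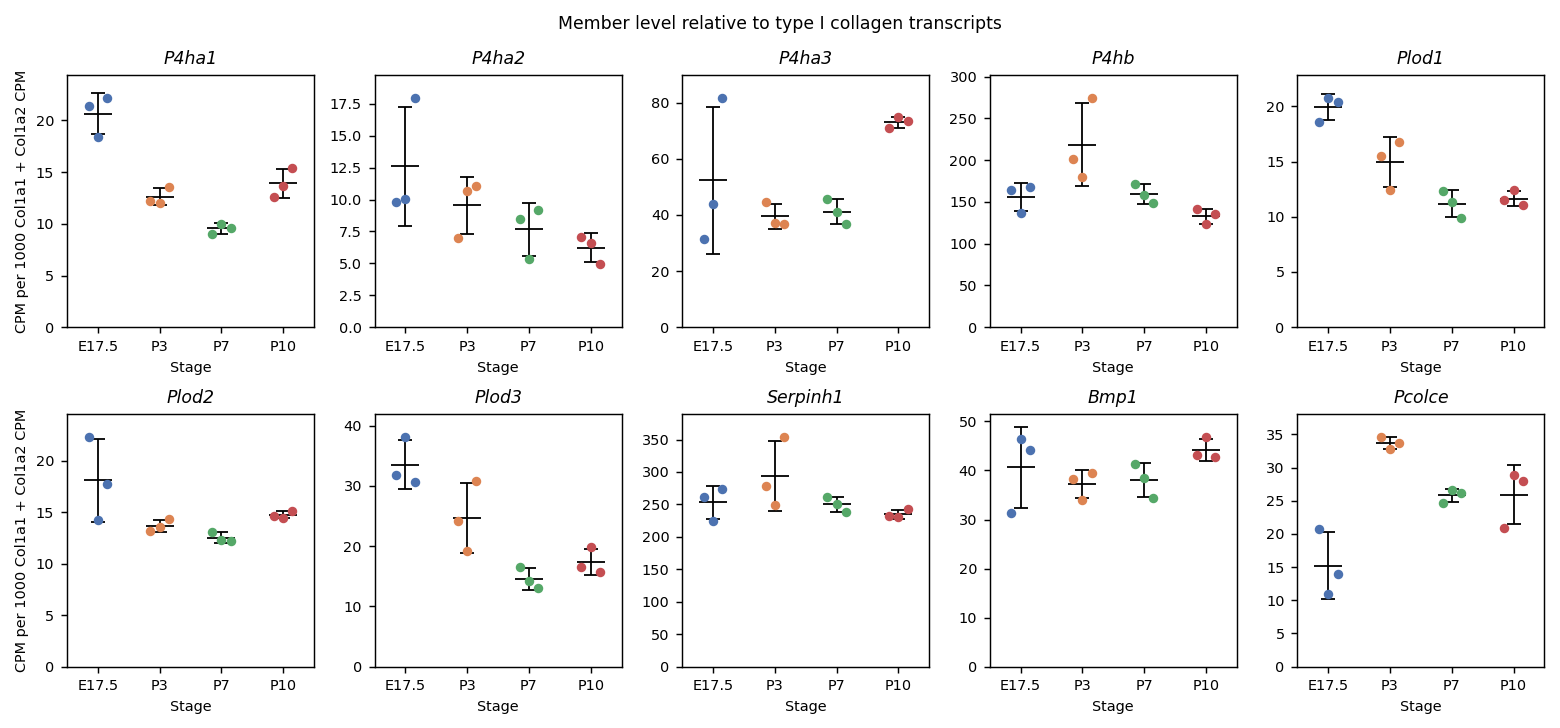
Level of each of the 10 genes in CPM per 1000 CPM of Col1a1 plus Col1a2 (vertical axis, linear, from 0) by stage; points are libraries, bars mean and 1 SD (n = 3). P4ha1 averaged 9.55 at P7 and 20.6 at E17.5, and the stage means of Serpinh1 lay between 235 and 294.

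The genes that define the sort were present at all stages but were not level. Acta2 averaged 1025 ± 46.4 CPM at P3 and 492 ± 182 CPM at E17.5, and Pdgfra 179 ± 24.1 CPM at P3 and 346 ± 71.9 CPM at E17.5. The other marker lists were summed per library. Adventitial fibroblast markers (5 genes, most of it Cd34 after birth) summed to 291 to 375 CPM at P3 and 57.2 to 153 CPM at E17.5. Cd34 averaged 263 CPM at P3 and 24.2 CPM at E17.5, whereas Dcn averaged 3.44 CPM at P3 and 16.01 CPM at E17.5. Among these 5 genes, edgeR called 1 higher and 1 lower at P3 than at E17.5 (25.1% of all genes called). Pericyte markers (6 genes) summed to 76.3 to 79.6 CPM at P3 and 141 to 208 CPM at E17.5. Alveolar fibroblast markers (6 genes) summed to 59.7 to 100.2 CPM at P10 and 234 to 1359 CPM at E17.5. Erythroid markers (6 genes) summed to 31.8 to 53.6 CPM at P3 and 117 to 179 CPM at E17.5. Epithelial markers of airways (5 genes) summed to 84.8 to 135 CPM at P3 and 14.9 to 24.6 CPM at E17.5, and those of alveoli (7 genes) to 156 to 236 CPM at P3 and 120 to 160 CPM at E17.5. Immune markers (6 genes) summed to 18.04 to 21.96 CPM at P3 and 10.2 to 11.8 CPM at E17.5. Endothelial markers (5 genes) summed to 14.6 to 18.4 CPM at E17.5, 11.3 to 23.0 CPM at P3 and 13.1 to 28.3 CPM at P7. The P10 libraries split, at 8.02, 50.7 and 49.5 CPM in replicates 1, 2 and 3. All 5 genes had a positive log2 fold change at P10 against P3, and 0 passed in edgeR (17.3% of all genes called). Mesothelial markers (4 genes) were at or under 1.46 CPM in all libraries, with Wt1 at 0 in all E17.5 and P10 libraries and Upk3b at 0 in all E17.5 libraries. Between P10 and P3, pericyte markers summed to 162 to 203 CPM at P10 and 76.3 to 79.6 CPM at P3. Among them Rgs5 averaged 68.2 ± 18.9 CPM at P10 and 15.3 ± 0.991 CPM at P3, and Pdgfrb 84.4 ± 1.13 CPM at P10 and 31.9 ± 4.005 CPM at P3. Higd1b went the other way, at 0.711 ± 0.266 CPM at P10 and 4.52 ± 0.184 CPM at P3. Cspg4 (5.32 CPM at P10 and 5.12 CPM at P3) and Notch3 (4.72 and 4.82 CPM) were near level. Kcnj8 averaged 22.1 CPM at P10 and 16.6 CPM at P3. Of the 6 genes, edgeR called 2 higher and 1 lower at P10 than at P3 (17.3% of all genes called). Acta2 averaged 487 ± 166 CPM at P10 and 1025 ± 46.4 CPM at P3. The pericyte sum and Acta2 thus moved between the stages at which P4ha1, P4ha3, Plod2 and Bmp1 were higher at P10 than at P3. The part of any of these cell types in the changes of the 10 genes was not tested.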

How the data were processed

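RNA of 12 libraries of sorted mouse lung cells was sequenced, 3 per stage. Per the labels' protocols, whole lung was dissociated and sorted and RNA was made into libraries with a stranded kit for small amounts of total RNA; the molecule field says polyA RNA instead. The genome build was GRCm38, per the submitters' processing notes; the aligner, counting tool, annotation and use of strand in counting were not given in the sources used here. In the deposited table are values that the submitters call scaled gene counts, taken here as estimated counts and used as whole numbers. How they were scaled was not given in the sources used here, so a value is not a number of reads.

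Genes were filtered by filterByExpr by stage and fitted in 1 model over all 12 libraries with TMM scaling (edgeR 4.0.16 quasi-likelihood test, robust; limma 3.58.1; R 4.3.3), adjusted by Benjamini-Hochberg over 16827 genes at 0.05. The prior degrees of freedom had a median of 2.61, and the common dispersion was 0.145. The fit was also run on simulated data with 200 changed genes. Those data did not hold the differences in structural RNA between libraries, and no result given here rests on them. Values are means ± SD of 3 libraries. The lowest and highest library totals were 13328600 and 18740600, which limits low genes most.

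The 10 genes and all gene lists were chosen with earlier results of these data known. Named list genes were those that passed in P3 against E17.5, P10 against P7 or P10 against E17.5, up to 4 per list by smallest p over the 4 stages, with Col1a1, Col1a2 and Col3a1 added. For each of the 10 genes that passed over all stages, the 2 genes most alike were named. Gene coordinates are from GENCODE mouse release M21 and promoters from RefSeq. Transcript lengths were those of the longest protein-coding transcript. Alternatives tried were each library left out, a replicate block, a fit to the 6 libraries of a comparison, limma-voom, DESeq2 1.42.0, and other filters and scalings.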

Additional observations from a re-analysis of the deposited data

How the results depend on the processing

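Over 21 alternative settings, 1342 of 1460 values of the 10 genes stayed on their side of the threshold, 85 lost their call, 33 gained one, and 0 values past the threshold changed sign. Most of the 1460 values belonged to results not called under the main settings, which had no call to lose. Among values short of the threshold under both settings, 44 changed sign, such as P4ha3 at P3 against E17.5, at 0.01 without E17.5 replicate 3 and -0.44 with all libraries. The number of the 10 genes called at P3 against E17.5 was 6, and it was 1 with total counts without structural RNA genes, 3 with no filter on low counts and 2 in the fit on the 6 libraries compared. At P10 against E17.5 it was 3, and it was 5 with upper quartile scaling, 5 with a mean of at least 10 CPM, 5 with DESeq2, 5 with limma-voom and 1 in the fit on 6 libraries. At P10 against P7 it was 1, and it was 0 with total counts without structural RNA genes and 2 with DESeq2; at P10 against P3 it was 4, and it was 2 with total counts without structural RNA genes. That scaling moved the median of all genes by 0.29 on the log2 scale at P10 against E17.5, and the cause of the other shifts was not tested. With 1 library left out, the count over all stages lay between 4 and 7 (6 with all libraries), at P3 against E17.5 between 3 and 5, at P7 against P3 between 0 and 0, at P10 against P7 between 0 and 2, at P10 against E17.5 between 1 and 4, at P7 against E17.5 between 4 and 6 (4 with all) and at P10 against P3 between 2 and 4.

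Replicate numbers did not pair the libraries: the deviations of same-numbered libraries correlated between -0.242 and 0.166 over 18 pairs, with 4 pairs over 0.1, and those of other pairs between -0.245 and 0.276. With a replicate block, 5 of the 10 genes passed over all stages, 4 at P3 against E17.5, 0 at P7 against P3, 1 at P10 against P7, 3 at P10 against E17.5, 4 at P7 against E17.5 and 3 at P10 against P3. The lowest value of any of the 10 genes in any library was 8.49 CPM.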

Other observations

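The genes whose course over the 12 libraries was most like that of each changing gene were found from the root-mean-square difference of mean-centred log2 CPM, among 6756 genes with a mean of at least 10 CPM. P4ha1 was followed most closely by Itgb5 and Il6st (0.12 and 0.13, where P4ha1 itself varied by 0.34). Itgb5, an integrin chain, averaged 55.4 ± 2.24 CPM at E17.5, 31.2 ± 2.39 CPM at P3, 32.9 ± 3.92 CPM at P7 and 40.1 ± 0.341 CPM at P10. P4ha3 was followed by Sema3c and Mgat5 (0.26 and 0.28, own variation 0.54). Sema3c, a secreted semaphorin, averaged 87.4 ± 20.0 CPM at E17.5, 56.0 ± 6.95 CPM at P3, 83.1 ± 6.03 CPM at P7 and 154 ± 2.73 CPM at P10. Pcolce was followed by Nucb2 and Osbpl1a (0.18 and 0.19, own variation 0.52). The nearest genes of Bmp1 were Dock6 and Hk1 (0.10 and 0.11, own variation 0.28), those of Plod1 were Pfkm and Cep170b (0.08 and 0.09, own variation 0.23), and those of Plod3 were Fam65a and Fbrsl1 (0.13 each, own variation 0.36).

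The ratio of Col1a1 to Col1a2 CPM lay between 0.99 and 1.08 in the P3 libraries and between 0.426 and 0.607 in the E17.5 libraries, without overlap, and between 0.938 and 1.06 in the P7 and P10 libraries.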
